A study of Mus musculus with 203 samples.

Results

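The Kruppel-like factor (KLF) genes examined here were Klf2, Klf3, Klf4, Klf6, Klf7, Klf9, Klf10, Klf11 and Klf13, taken by gene symbol from the RNA-seq tables of macrophages. All 9 were found among the 25094 genes of the table of RAW cells and also among the 16478 genes of the table of bone marrow-derived macrophages (BMDMs), with the same transcripts. The BMDM table holds the outcome of the authors' own comparisons without values per library, so it was not analysed here beyond finding the genes, and all results are for RAW cells. RAW264.7 is a macrophage line from BALB/c mice. Stable lines carried a lentiviral short hairpin RNA against Kdm1a (shKDM1A), which encodes the lysine demethylase KDM1A, or against GFP as control (shGFP), and each line was sequenced untreated (control) and after 20 ng/ml of interleukin 4 (IL4) for 6 h. This gave 4 groups of 4 libraries: shGFP control, shGFP IL4, shKDM1A control and shKDM1A IL4. All lines had been transduced and selected with puromycin, and 1 hairpin was used per target, so the loss of Kdm1a and any other difference between the lines cannot be told apart. The labels do not say that the libraries came from separate cultures, so p-values measure only the spread between these libraries.

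KLF proteins are transcription factors that bind GC boxes and CACCC boxes in DNA through zinc fingers at their C-terminal end, a domain they share with the SP factors. Their other regions set whether they activate or repress. Klf2, Klf4, Klf6 and Klf7 are mostly known as activators, Klf3 as a repressor that recruits the corepressor CtBP, and Klf9, Klf10, Klf11 and Klf13 as repressors that recruit the corepressor Sin3A. In macrophages, KLF4 is known to act with the IL4-activated factor STAT6 in alternative activation, KLF2 to restrain inflammatory activation, and KLF6 to favour it.

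RefSeq promoter sequences (GRCm38.p6) were matched to 8 of the 9 genes, and the 250 bases before the transcription start each occurred exactly once in the mm9 genome, the build of the expression table. Klf10 was not in the promoter table. Sequences of 4 genes are shown because these genes differed with IL4 or shKDM1A in different ways, as described further on. On mm9 the windows lie at chr8:74842711-74842960 (+ strand) for Klf2, chr4:55545348-55545597 (- strand) for Klf4, chr13:5860485-5860734 (+ strand) for Klf6 and chr19:23215466-23215715 (+ strand) for Klf9. They are written 5′ to 3′ on the strand of the gene, and capitals mark GC boxes (GGGCGG) and CACCC boxes (CACCC) on either strand, which are the elements that KLF proteins themselves recognise.
Klf2: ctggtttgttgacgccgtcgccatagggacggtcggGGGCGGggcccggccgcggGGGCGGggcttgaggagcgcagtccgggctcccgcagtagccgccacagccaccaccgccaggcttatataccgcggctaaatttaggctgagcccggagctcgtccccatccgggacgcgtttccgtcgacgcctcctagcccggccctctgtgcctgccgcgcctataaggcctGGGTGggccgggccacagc
Klf4: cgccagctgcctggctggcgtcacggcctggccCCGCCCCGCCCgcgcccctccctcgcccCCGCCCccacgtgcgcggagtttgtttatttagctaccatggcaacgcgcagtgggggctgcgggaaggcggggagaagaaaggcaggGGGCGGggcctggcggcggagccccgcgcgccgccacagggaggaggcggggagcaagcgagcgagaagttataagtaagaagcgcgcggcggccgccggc
Klf6: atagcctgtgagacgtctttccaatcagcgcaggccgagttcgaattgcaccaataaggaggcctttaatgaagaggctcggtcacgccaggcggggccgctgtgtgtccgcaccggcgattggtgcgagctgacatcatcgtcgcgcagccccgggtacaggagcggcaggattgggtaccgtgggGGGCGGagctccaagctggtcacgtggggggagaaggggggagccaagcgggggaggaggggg
Klf9: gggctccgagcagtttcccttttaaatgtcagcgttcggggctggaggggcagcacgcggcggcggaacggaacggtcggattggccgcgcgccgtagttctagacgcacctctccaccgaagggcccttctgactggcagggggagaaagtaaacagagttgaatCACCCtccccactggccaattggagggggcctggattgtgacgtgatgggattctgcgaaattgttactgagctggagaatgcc
A GC box was present in 7 of the 8 windows, all but that of Klf9, against 32.9% of the 27025 promoter windows of the same length in the table and 58.5% of the 10022 windows of genes tested here. CACCC boxes were present in 5 of 8, against 51.3% of all windows and 56.4% of those of tested genes, and the other motifs are given with both shares in the same order. All motifs were searched on both strands. The spacing that STAT6 prefers, TTC and GAA with 4 bases between them, was in none of the 8 windows (5.86% and 4.73%), while the spacing shared by other STAT factors, TTCNNNGAA, was in that of Klf9 only (7.18% and 6.02%). Windows of 4 genes, Klf2, Klf4, Klf9 and Klf13, held TGACG, the core of a cyclic AMP response element (17.9% and 27.7%), but none held the full element TGACGTCA that contains it (1.62% and 2.83%). An AP-1 site, TGANTCA, was found in the window of Klf9 only (6.87% and 4.23%), CCAAT boxes in 4 of 8 windows (34.5% and 37%) and the PU.1 sequence GAGGAAGT in none (2.44% and 2.62%). The GC content of the 8 windows was between 59.2% and 78.4%, against a median of 52% over all windows. It was not compared with the windows of tested genes alone. A match is a description of these letters and does not show binding.

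Values are as the authors deposited them and were read as log2 values. Their transformation is not named, but the medians of the libraries were nearly equal and weakly expressed genes were drawn together. Totals were between 17554721 and 27782568 tags per library. Genes that reached 1 in 4 or more libraries, 12905 in all, were tested with limma in 1 model of the 4 groups, and a gene was called higher or lower at a Benjamini-Hochberg adjusted p under 0.05. All 9 KLF genes passed this filter. Kdm1a itself was between 11.07 and 11.23 in the 8 shGFP libraries and between 10.23 and 10.36 in the 8 shKDM1A libraries, so that it fell by 45.8% without IL4 (adjusted p = 5.6e-13) and fell by 42.0% with IL4 (adjusted p = 2.2e-12). All 8 macrophage markers looked up, among them Csf1r, Spi1 and Lyz2, were expressed in all groups, with group means of 9.55 and above. However, all 8 were called with shKDM1A, 5 higher and 3 lower both without and with IL4 (38.2% and 40.7% of all genes were called). With IL4 in shGFP cells, 2 were higher, among them Adgre1 by 1.24, and 2 were lower, where 26.9% of all genes were called. None of the 4 fibroblast, 4 T-cell and 4 B-cell markers reached a value of 1 in any library, and of 4 endothelial markers only Kdr passed the filter, at group means up to 1.51. In these bulk libraries, fewer cells that express a gene and less RNA per cell cannot be told apart. Libraries of 1 group differed by a median of 0.036 to 0.056 over genes. On the third principal component (5.40% of the variance), shKDM1A IL4 replicates 1 and 3 stood apart from replicates 2 and 4 (6.68 and 5.33 against -1.80 and -1.27), and shGFP control replicates 1 and 4 from replicates 2 and 3 (3.20 and 5.42 against 0.49 and 0.27). The comparisons were repeated without either pair, which also leaves fewer libraries, and where this ended a call given here for a named gene, it is stated. Without shGFP control replicates 1 and 4, Adgre1 was not called with shKDM1A without IL4, at -0.12, where it was called at -0.11 with all libraries. That left 5 markers higher and 2 lower. Of the markers lower with IL4 in shGFP cells, 1 was called without this pair and 4 without shKDM1A IL4 replicates 1 and 3.

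Levels of different genes can be compared only per length, so the deposited value was expressed per kb of exon. In shGFP control cells the 4 libraries gave the same order but for replicate 1, where Klf4 and Klf13 changed places. Klf6 was highest, at 8.95 ± 0.043 (SD, n = 4) on the log2 scale per kb, followed by Klf10 at 7.73 ± 0.045 (SD, n = 4). Klf4 at 7.40 and Klf13 at 7.37 followed, and their libraries overlapped, so this pair did not differ beyond its spread. Below them came Klf2 at 7.05, Klf9 at 6.44, Klf7 at 5.63, Klf3 at 5.07 and Klf11 at 4.06, with no overlap between neighbours. The same order of group means was found in shGFP IL4 and shKDM1A control cells, where Klf4 and Klf13 did not overlap. In shGFP IL4 cells Klf13 at 7.46 and Klf2 at 7.36 overlapped. In shKDM1A IL4 cells Klf2, at 7.63, lay above Klf13, at 7.31, the only pair of neighbours that changed places. The length used for Klf7, 1328 bases of exon, is that of the transcript listed in the table.

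**Figure D1:**
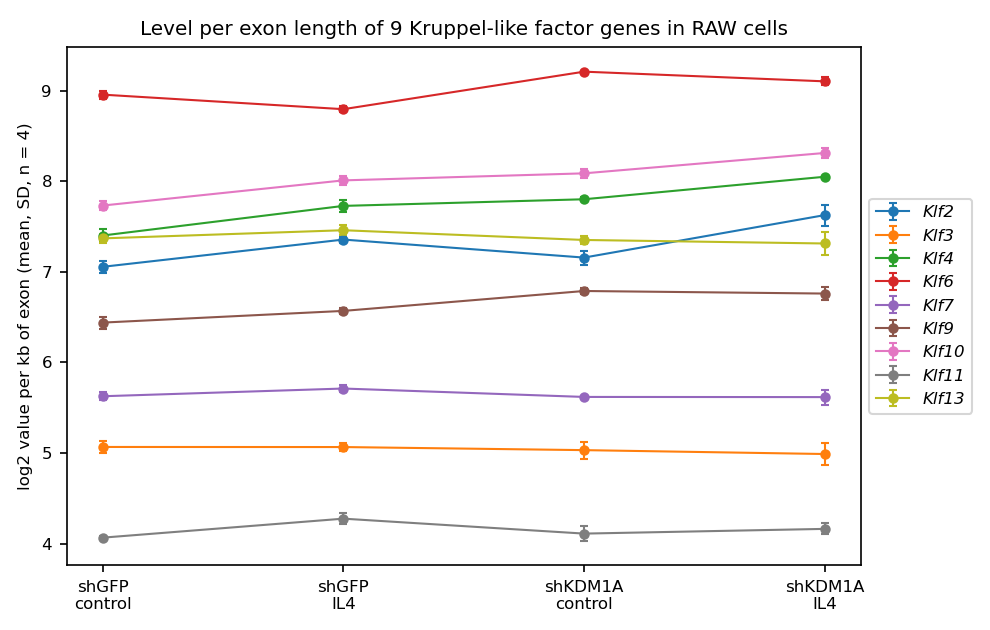
Level of the 9 KLF genes in RAW cells as the log2 value per kb of exon (vertical axis) in the 4 groups (horizontal axis), with the mean and SD of 4 libraries. Klf6 was highest in each group, at 8.95 in shGFP control cells, and Klf11 lowest, at 4.06; the lines of Klf2 and Klf13 cross in shKDM1A IL4 cells.

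The comparison of shGFP IL4 with shGFP control libraries asked how IL4 alone changed the genes. IL4 raised Klf2, Klf4, Klf9, Klf10 and Klf11 and lowered Klf6, and the changes were between 9.36% and 25.4%. Thus 6 of the 9 KLF genes were called, 5 higher and 1 lower, where 26.9% of all genes tested were called (13.1% higher and 13.7% lower). The median log2 fold change of the 9 genes was 0.13, and that of all genes was -0.00049. For 7 genes the groups of 4 libraries did not overlap, as for 28.3% of all genes.

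Among the activators, Klf4 was at 8.90, 9.07, 9.04 and 9.00 in the shGFP control libraries and at 9.23, 9.36, 9.35 and 9.37 in the shGFP IL4 libraries. Each treated library was above each untreated one, although the first IL4 replicate was lower than the other three. The log2 fold change was 0.33 with a standard error (SE) of 0.034 (adjusted p = 1.6e-06), an increase of 25.4%. Klf2 was at 8.00, 7.84, 7.90 and 7.91 without IL4 and at 8.23, 8.18, 8.19 and 8.25 with IL4, again without overlap. Its log2 fold change was 0.30 (SE 0.051, adjusted p = 0.00027), an increase of 23.2%. Klf6, the most abundant of the 9 per length, went the other way. It was at 11.00, 11.08, 11.04 and 10.99 in untreated and at 10.90, 10.88, 10.83 and 10.86 in IL4-treated shGFP libraries, so that all 4 treated libraries were lower. Klf6 fell by 0.16 on the log2 scale (SE 0.025, adjusted p = 0.00014), that is, it fell by 10.5%. Klf7 was between 5.97 and 6.07 without and between 6.07 and 6.15 with IL4, groups that just did not overlap, and its log2 fold change of 0.085 did not pass the threshold (adjusted p = 0.081). It was called, at the same 0.085, when only the 2 groups compared were modelled and when shKDM1A IL4 replicate 2, or replicates 1 and 3, were left out of the model. Gm13748 and Gm17427 overlap exons of Klf7 on the opposite strand and the counting was not stranded, so its values may include their reads.

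Among the Sin3A-recruiting repressors, Klf10, an early target of TGF-beta signalling, was at 9.35, 9.36, 9.37 and 9.27 in untreated and at 9.61, 9.67, 9.55 and 9.64 in IL4-treated shGFP libraries. The groups were well apart, with a log2 fold change of 0.28 (SE 0.034, adjusted p = 1.0e-05). Klf11, a close relative that also responds to TGF-beta, had its 4 untreated libraries between 6.04 and 6.07 and its treated libraries at 6.22, 6.27, 6.35 and 6.22. Its log2 fold change was 0.21 (SE 0.041, adjusted p = 0.0010). Klf9, which is induced by glucocorticoids and thyroid hormone, was at 8.53, 8.68, 8.63 and 8.57 without and at 8.72, 8.71, 8.78 and 8.72 with IL4. The log2 fold change was 0.13 (SE 0.036, adjusted p = 0.013), and it was no longer called without shGFP control replicate 1, at 0.10, or without replicates 1 and 4, at 0.078. Klf13 was between 9.98 and 10.10 without and between 10.06 and 10.19 with IL4, and its groups overlapped (log2 fold change 0.090, adjusted p = 0.20). Klf3, the CtBP-recruiting repressor, showed no measurable change, with a log2 fold change of -0.00091 and a 95% interval from -0.12 to 0.12.

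**Figure D2:**
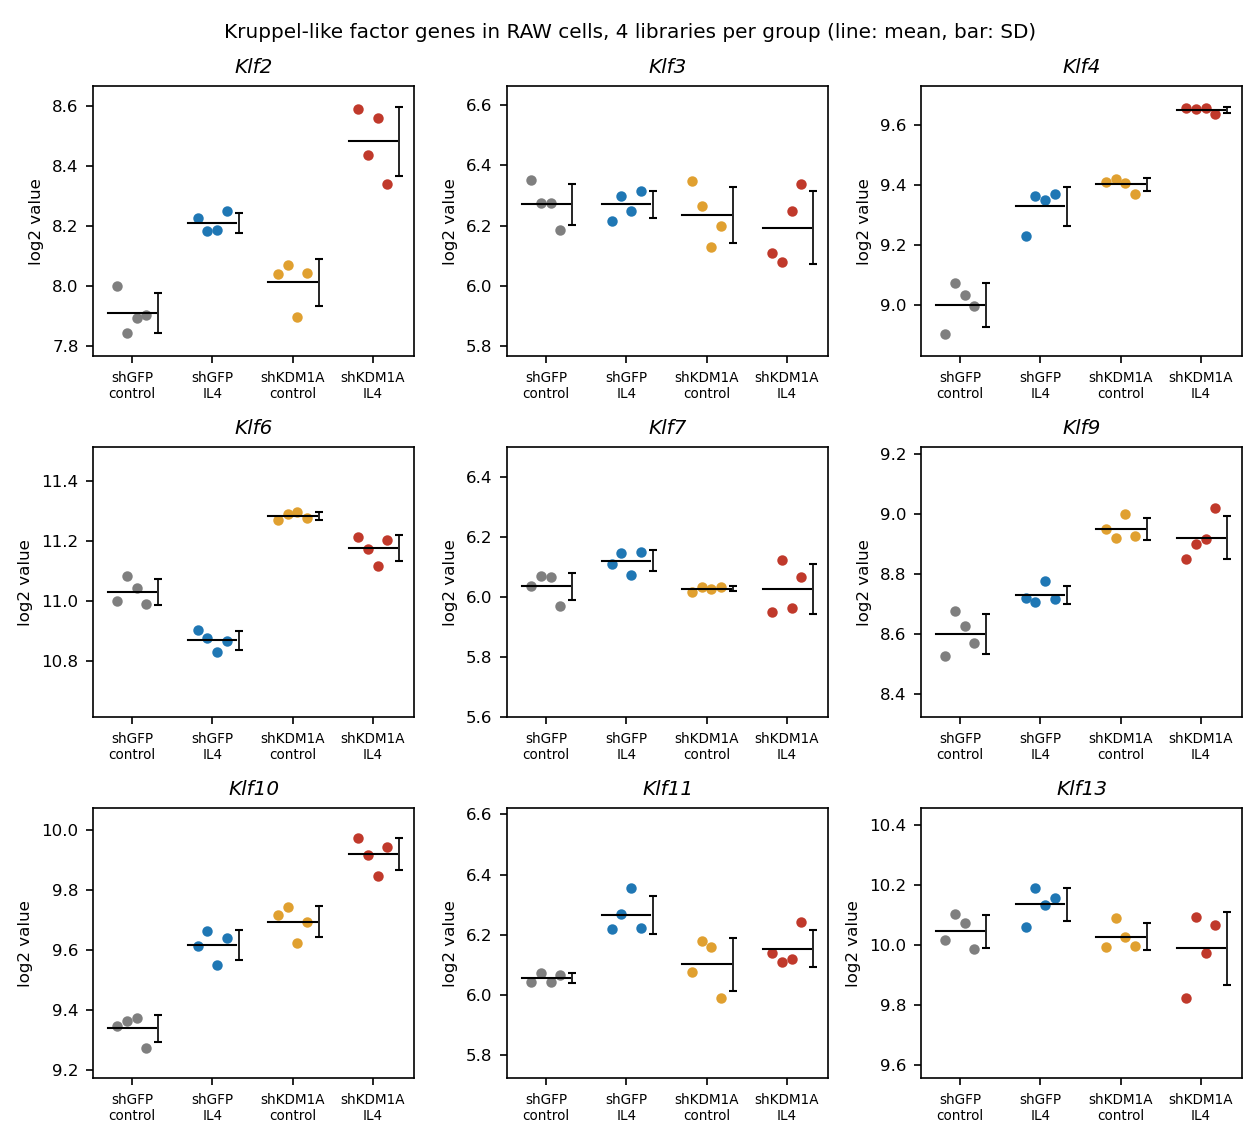
Log2 value of each KLF gene (vertical axis, each panel spanning the same range of 0.9) in the 4 libraries of each group (points), with the mean as a line and the SD as a bar. Klf2, Klf4 and Klf10 were higher with IL4 in both lines, Klf6 was lower with IL4 in both lines, and the shKDM1A libraries of Klf4, Klf6, Klf9 and Klf10 lay above the shGFP libraries of the same treatment.

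The comparison of shKDM1A IL4 with shKDM1A control libraries gave the IL4 response in the shKDM1A line. Its group means come from other libraries than those of the preceding comparison, but the spread was estimated from all libraries in 1 model. IL4 again raised Klf2, Klf4 and Klf10 and lowered Klf6. With 3 genes higher and 1 lower, 4 of 9 were called, where 27.1% of all genes were (13.6% higher and 13.5% lower), and these 4 were also the genes whose libraries did not overlap (25.7% of all genes). The median log2 fold change of the 9 genes was -0.0019, against -0.0025 for all genes.

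Klf2 had the largest IL4 response of the 9 genes in shKDM1A cells. It was at 8.04, 8.07, 7.90 and 8.04 in untreated and at 8.59, 8.44, 8.56 and 8.34 in IL4-treated shKDM1A libraries, a log2 fold change of 0.47 (SE 0.051, adjusted p = 2.7e-06) or 38.4%. The treated libraries were all above the untreated ones but spread more widely, replicates 1 and 3 being the higher pair. Without these replicates the log2 fold change was 0.38 and was still called. Klf4 was at 9.41, 9.42, 9.41 and 9.37 without IL4 and between 9.64 and 9.66 with IL4, the closest replicates of the 9 genes in any IL4-treated group (log2 fold change 0.25, adjusted p = 3.7e-05). Klf10 was at 9.72, 9.74, 9.62 and 9.69 without and at 9.97, 9.92, 9.85 and 9.94 with IL4 (log2 fold change 0.22, adjusted p = 0.00010). Klf6 was at 11.27, 11.29, 11.30 and 11.28 without and at 11.21, 11.17, 11.12 and 11.20 with IL4, all treated libraries being lower (log2 fold change -0.11, adjusted p = 0.0044). Klf11, which IL4 raised in shGFP cells, was between 5.99 and 6.18 without and between 6.11 and 6.24 with IL4 here (log2 fold change 0.052, adjusted p = 0.40). Klf9 was between 8.92 and 9.00 without and between 8.85 and 9.02 with IL4 (log2 fold change -0.028, adjusted p = 0.64). The values of Klf3, Klf7 and Klf13 overlapped between groups, with log2 fold changes of -0.043, -0.0019 and -0.039.

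The difference between the IL4 responses in shKDM1A and shGFP cells was tested directly as an interaction. None of the 9 KLF genes was called in this test by limma, where 6.13% of all genes were (3.56% higher and 2.57% lower), and 3 had an unadjusted p under 0.05, namely Klf2, Klf9 and Klf11. For Klf2 the IL4 response was larger in shKDM1A cells by 0.17 on the log2 scale (95% interval 0.016 to 0.32, adjusted p = 0.17), and by 0.075 without shKDM1A IL4 replicates 1 and 3. Without these the differences of Klf9 and Klf11, given next, were -0.12 and -0.13, and without shGFP control replicates 1 and 4 those of Klf2, Klf9 and Klf11 were 0.13, -0.11 and -0.16. For Klf9 it was smaller, with a difference of -0.16 (95% interval -0.27 to -0.049, adjusted p = 0.077), and likewise for Klf11, also at -0.16 (95% interval -0.28 to -0.034, adjusted p = 0.12). The call depended on single libraries. Klf9 was called at -0.18 without shGFP control replicate 2, and both Klf9 at -0.19 and Klf2 at 0.22 were called without shKDM1A IL4 replicate 4. Klf11 was called at -0.20 without shKDM1A control replicate 4. For Klf4, Klf6 and Klf10, which IL4 changed in both lines, the differences were -0.078, 0.054 and -0.053, and their 95% intervals included 0. Without shGFP control replicates 1 and 4 they were -0.026, 0.088 and -0.024.

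The comparison of shKDM1A with shGFP control libraries asked how the lines differed before IL4. It uses the control libraries that also entered the IL4 comparisons. Klf4, Klf6, Klf9 and Klf10 were higher in shKDM1A cells by 19.2% to 32.0%, and none of the 9 genes was called lower. So 4 of 9 were called, where 38.2% of all genes were called (19.7% higher and 18.4% lower), and the same 4 were free of overlap between libraries (37.4% of all genes). The median log2 fold change of the 9 genes was 0.10, against -0.0027 over all genes.

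The change of Klf4, from the library values given above, was 0.40 on the log2 scale (SE 0.034, adjusted p = 8.7e-08), since the lowest shKDM1A control library at 9.37 lay above the highest shGFP control library at 9.07. Klf10 rose by 0.36 (SE 0.034, adjusted p = 3.5e-07) and Klf9 by 0.35 (SE 0.036, adjusted p = 8.4e-07). For Klf9 the shKDM1A control libraries were at 8.95, 8.92, 9.00 and 8.93, above all IL4-treated shGFP libraries as well. Klf6 rose by 0.25 (SE 0.025, adjusted p = 5.8e-07), so that the gene that IL4 lowered was higher in shKDM1A cells. Klf2 was at 0.10 with overlapping libraries (adjusted p = 0.13), and was called at 0.14 when shKDM1A control replicate 3, its lowest library in that group, was left out. Klf11 at 0.045, Klf3 at -0.035, Klf13 at -0.018 and Klf7 at -0.0076 did not pass the threshold, with adjusted p between 0.44 and 0.89.

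With IL4 in both lines, shKDM1A was again compared with shGFP. The same 4 genes and Klf2 were higher in the shKDM1A libraries, without overlap, while Klf7, Klf11 and Klf13 were called lower by small amounts with overlapping libraries. That made 8 of 9 genes called, 5 higher and 3 lower, where 40.7% of all genes were called, 20.9% higher and 19.8% lower. The 5 genes that were higher were also those whose groups did not overlap, as held for 36.4% of all genes. The median log2 fold change of the 9 genes was 0.19, against -0.0024 over all genes. The shGFP IL4 and shKDM1A IL4 libraries also entered the IL4 comparisons.

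Klf4 rose by 0.32 (SE 0.034, adjusted p = 1.2e-06), Klf6 by 0.31 (SE 0.025, adjusted p = 5.9e-08) and Klf10 by 0.30 (SE 0.034, adjusted p = 2.4e-06). These were increases of between 23.3% and 25.0%. Klf2 rose by 0.27 (SE 0.051, adjusted p = 0.00044), and by 0.18 without shKDM1A IL4 replicates 1 and 3. Klf9 rose by 0.19 (SE 0.036, adjusted p = 0.00045), and the lowest shKDM1A IL4 library, at 8.85, was above the highest shGFP IL4 library, at 8.78. Klf3 had a log2 fold change of -0.077 (adjusted p = 0.30).

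**Figure D3:**
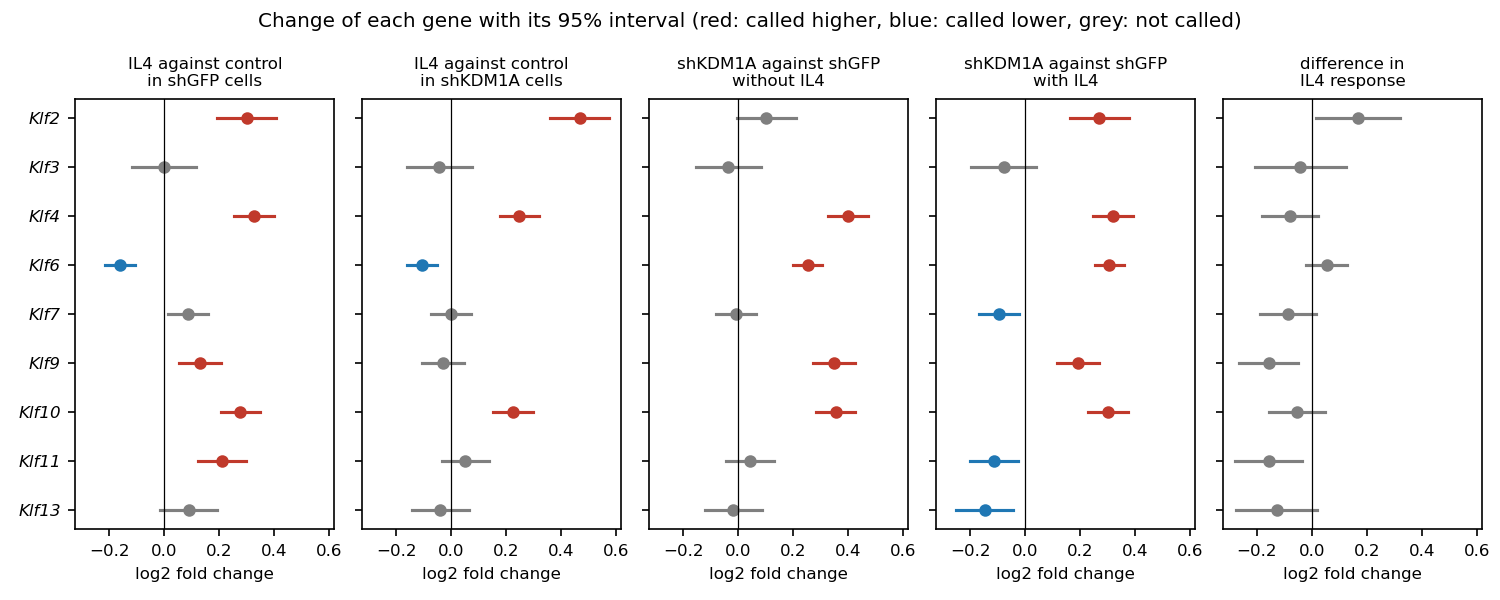
Log2 fold change of each KLF gene (horizontal axis) with its 95% interval, in the 4 comparisons of groups and for the difference in IL4 response; red marks genes called higher, blue genes called lower and grey genes not called. Klf4 and Klf10 were called higher in all 4 comparisons of groups, Klf6 was lower with IL4 and higher with shKDM1A, and no gene was called for the difference in IL4 response.

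The 3 decreases with IL4 were the least secure calls. Klf13 was at 10.06, 10.19, 10.13 and 10.16 in shGFP IL4 and at 9.82, 10.09, 9.97 and 10.06 in shKDM1A IL4 libraries, a log2 fold change of -0.15 (SE 0.049, adjusted p = 0.025). Klf11 had a log2 fold change of -0.11 (SE 0.041, adjusted p = 0.038) and Klf7 of -0.095 (SE 0.034, adjusted p = 0.037). Without shKDM1A IL4 replicates 1 and 3 none of the 3 was called, at -0.055 for Klf13, -0.090 for Klf11 and -0.025 for Klf7. Each call was also lost without either of these replicates alone, Klf13 then being at -0.091 without replicate 1 and at -0.14 without replicate 3. Leaving out shGFP IL4 replicate 2 ended all 3 calls too, at -0.13 for Klf13, -0.11 for Klf11 and -0.086 for Klf7. Single calls ended without shGFP IL4 replicate 1 (Klf7, -0.098), replicate 3 (Klf11, -0.083) and replicate 4 (Klf7, -0.085, and Klf13, -0.14), and without shKDM1A IL4 replicate 2 (Klf11, -0.098). Klf11 was also not called, at -0.11, without shGFP control replicates 1 and 4.

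Gene length moved with these libraries. The tested genes were divided into 4 equal classes by exon length, the shortest up to 1695 bases and the longest from 4235 bases, and the median deviation of the longest class from its mean over all libraries was set against that of the shortest. This difference was -0.070 and -0.076 in shKDM1A IL4 replicates 1 and 3, the lowest of the 16 libraries, and 0.015 and 0.012 in replicates 2 and 4. It was between 0.029 and 0.040 in the shGFP IL4 libraries, between -0.041 and 0.021 in the shGFP control libraries and between -0.0093 and 0.013 in the shKDM1A control libraries. In shKDM1A against shGFP with IL4, 34.2% of the longest class of genes were called lower and 15.4% higher, while 8.30% of the shortest class were lower and 22.3% higher. Klf13, with 6392 bases, and Klf9, with 4476 bases, belong to the longest class, Klf11, at 3976 bases, to the third class, and Klf7, by its listed transcript, to the shortest. In the difference of the IL4 responses the longest class had a median of -0.057 and the shortest of 0.025. With IL4 in shGFP cells, 19.7% of the longest class were called higher and 10.6% lower, against 6.14% and 15% of the shortest. With IL4 in shKDM1A cells, 10.1% of the longest class were higher and 21.2% lower, against 12.8% and 6.63% of the shortest. The part of this offset in the changes of Klf7, Klf9, Klf11 and Klf13 was not tested.

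**Figure D4:**
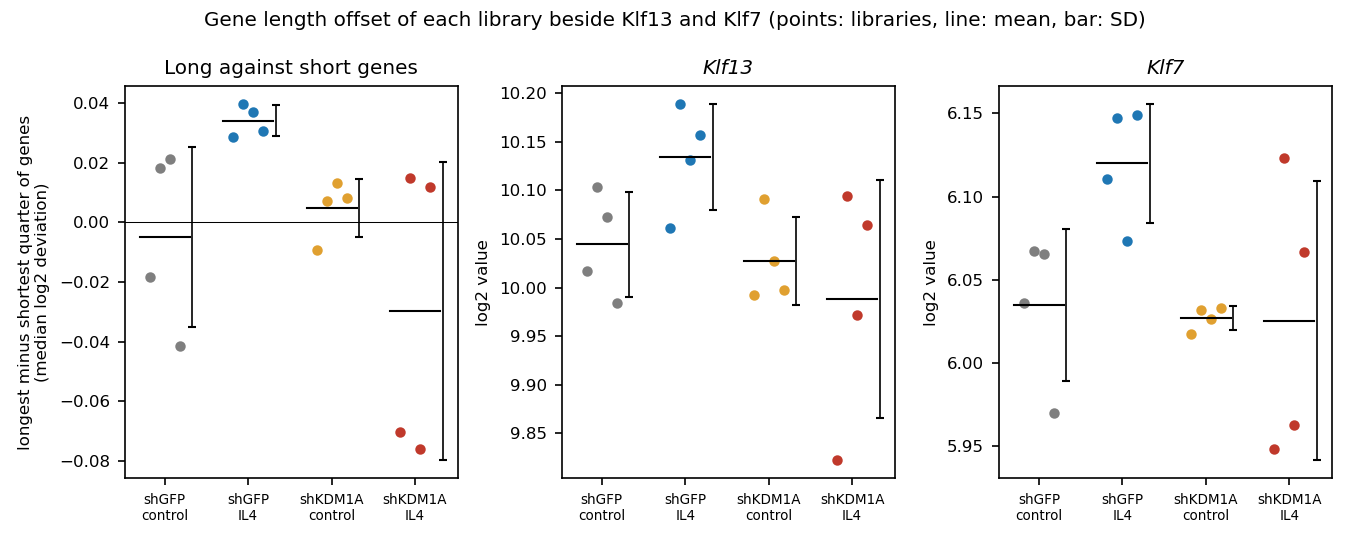
Left, the median log2 deviation of the longest class of genes minus that of the shortest in each library (points) by group, with the mean as a line and the SD as a bar; middle and right, the log2 values of Klf13 and Klf7 in the same libraries. Replicates 1 and 3 of shKDM1A IL4 are lowest in the left panel, at -0.070 and -0.076, and are the lower pair for Klf13 and Klf7 in that group.

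Over the 16 libraries, the values of Klf4 and Klf10 went together most closely (Pearson's r = 0.97), followed by Klf7 and Klf13 (0.87), Klf4 and Klf9 (0.84) and Klf2 and Klf10 (0.82). These correlations are descriptions over libraries that share 4 groups and their treatments, and they take in differences both between and within groups. The 3 genes outside the family most like each member were found in the same way. For Klf2 they were Bak1 (0.97), which encodes a protein that promotes apoptosis, Junb (0.96), an AP-1 subunit, and Bdh2 (0.96). For Klf4 they were Plod1 (0.98), a collagen-modifying enzyme, Mcm6 (0.98), a subunit of the replicative helicase, and Gm2a (0.97), a lysosomal activator protein. Mcm6 (0.97) was also among those of Klf10, with Nlrx1 (0.98) and the anion exchanger Slc4a2 (0.97). For Klf6 they were the actin regulator Cap1 (0.99), the apoptosis inhibitor Birc3 (0.99) and Aplp2 (0.98), and for Klf9 the ubiquitin ligase Rnf111 (0.97), the transporter Abcc1 (0.95) and the actin linker Rdx (0.95). Likeness was lower for Klf11, with Asap3, Ppp1r9b and Wnt10b (each 0.86), and for Klf3, with 1700123O20Rik (0.80), Mllt1 (0.73) and Angptl6 (0.73). The genes most like Klf7 were Baz1a (0.94), Baz2a (0.92) and Usp24 (0.92), and those most like Klf13 were Spen (0.95), Ncoa2 (0.94) and Prrc2c (0.94). All 6 of these belong to the longest class of genes, with exon lengths from 6150 to 12281 bases, as do the 3 genes most like Klf9 and also Asap3, Ppp1r9b, Mcm6 and Gm2a.

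Of the other 8 KLF genes, 5 did not pass the filter. Klf12, Klf14 and Klf15 were listed at 0 in all libraries, Klf5 and Klf17 were under 1 in all libraries, and Klf1, Klf8 and Klf16 were tested. Klf16 was higher with IL4 in shKDM1A cells (log2 fold change 0.13), and Klf8 in shGFP cells (0.12) and in shKDM1A cells (0.14). Neither was called with shKDM1A, and Klf16 was not called without shKDM1A IL4 replicates 1 and 3 (0.11), nor Klf8 in shGFP cells without shGFP control replicates 1 and 4 (0.14). Of 9 SP factor genes, 6 were tested, and Sp3 was higher with IL4 in shGFP cells (0.13), while Sp8 was lower in shKDM1A cells (-0.087). Sp3 was not called without shGFP control replicates 1 and 4 (0.10). With IL4, Sp1 (-0.20) and Sp3 (-0.11) were lower and Sp8 (0.064) higher in shKDM1A than in shGFP cells, and without IL4 only Sp8 was called, higher at 0.13. Without shKDM1A IL4 replicates 1 and 3 none of these SP genes was called with IL4, at -0.065 for Sp1, -0.071 for Sp3 and 0.062 for Sp8. Over all genes, 26.9% and 27.1% were called with IL4 in shGFP and shKDM1A cells, and 38.2% and 40.7% with shKDM1A without and with IL4.

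The cofactors and regulators of KLF proteins comprised 13 genes, all tested. Sin3a, the corepressor recruited by Klf9, Klf10, Klf11 and Klf13, was higher in shKDM1A cells by 0.43 without IL4 (adjusted p = 1.2e-09) and by 0.28 with IL4 (adjusted p = 2.7e-07), and higher with IL4 in shGFP cells by 0.16. The responses of Sin3a to IL4 in the lines differed by -0.15 (adjusted p = 0.024), and those of Ctbp1, a CtBP corepressor, by 0.14 the other way (adjusted p = 0.027), the 2 genes of the list called in that test, where 6.13% of all genes were. Neither was called without shKDM1A IL4 replicates 1 and 3 (-0.11 and 0.097) or without shGFP control replicates 1 and 4 (-0.16 and 0.14). Ctbp2, a corepressor recruited by Klf3, was lower in shKDM1A cells, with log2 fold changes of -0.23 without and -0.22 with IL4. In all, 6 of the 13 genes were higher and 3 lower with shKDM1A without IL4, 5 and 2 with IL4, 3 and 1 with IL4 in shGFP cells, and 2 and 2 with IL4 in shKDM1A cells. The shares of all genes called in these comparisons were 38.2%, 40.7%, 26.9% and 27.1%. Without shGFP control replicates 1 and 4, 3 genes were higher and 3 lower with shKDM1A without IL4, and 1 and 1 with IL4 in shGFP cells. Wwp1, a ubiquitin ligase that targets KLF proteins, was lower with IL4 in both lines (-0.18 and -0.27).

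The 15 genes looked up upstream of KLF genes act in the ERK5 and MEF2, IL4, TGF-beta and glucocorticoid pathways. With IL4, 4 were higher and 1 lower in shGFP cells, and 3 were higher and 4 lower in shKDM1A cells. Of all genes, 26.9% and 27.1% were called. Without shKDM1A IL4 replicates 1 and 3, the counts were 5 and 2 in shGFP cells and 3 and 2 in shKDM1A cells. Without shGFP control replicates 1 and 4, they were 3 and 1 in shGFP cells and unchanged in shKDM1A cells. Tgfbr1, a TGF-beta receptor, rose with IL4 by 0.99 in shGFP and by 0.46 in shKDM1A cells, and this difference of -0.53 was called (adjusted p = 4.3e-05). Tgfbr2, the receptor it pairs with, fell in both lines (-0.47 and -0.52). Mef2a, a factor that drives Klf2 downstream of ERK5, rose by 0.59 and 0.41 (difference -0.18, adjusted p = 0.030). Nr3c1, the glucocorticoid receptor, also differed in its IL4 response (-0.27, adjusted p = 0.015), being at 0.10 and not called in shGFP cells and lower at -0.17 in shKDM1A cells. The difference was not called for Mef2a (-0.13 and -0.14) or Nr3c1 (-0.20 in both cases) without shKDM1A IL4 replicates 1 and 3 or without shGFP control replicates 1 and 4, while that of Tgfbr1 was (-0.49 and -0.46). Without shKDM1A IL4 replicates 1 and 3, Nr3c1 was called higher with IL4 in shGFP cells, at 0.10, and not called in shKDM1A cells, at -0.093. With shKDM1A, 4 genes were higher and 3 lower without IL4, and 2 higher and 5 lower with IL4 (38.2% and 40.7% of all genes), including Map2k5, the kinase of ERK5, at 0.30 in both cases, Smad3 at -0.27 and -0.38 and Tgfbr1 at -0.27 and -0.80.

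Of 16 genes described as targets of KLF proteins, 13 were tested. With IL4, 8 were higher and none lower in shGFP cells (median 0.15 over the tested genes, against -0.00049 over all genes), and 7 were higher and 1 lower in shKDM1A cells. Of all genes, 26.9% and 27.1% were called in these comparisons. The largest changes in shGFP cells were in Mrc1, the mannose receptor (1.32), Smad7, an inhibitor of TGF-beta signalling (0.58), S1pr1, a receptor for sphingosine 1-phosphate (0.48), and Eng, a TGF-beta coreceptor (0.32). In shKDM1A cells Smad7 (0.55) and Mrc1 (0.50) were higher and the integrin gene Itgb7 (-0.34) was lower. The responses of Mrc1 (difference -0.82), Itgb7 (-0.31) and Tgfbi (-0.13) were smaller or more negative in shKDM1A cells, and that of Tgfbi was not called without either pair of libraries (-0.13 each). With shKDM1A, 4 target genes were higher and 3 lower without IL4 and 5 and 4 with IL4, where 38.2% and 40.7% of all genes were called, about as many higher as lower. S1pr1 was lower (-0.98 without and -1.14 with IL4), while Itgb7 (0.88 and 0.57) and the cell cycle inhibitor Cdkn1a (0.34 and 0.42) were higher. Mrc1 was at -0.017 and not called without IL4, and lower at -0.83 with IL4.

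Several KLF genes are known as early response genes, so 16 immediate early genes were looked up. With IL4, 7 were higher and 4 lower in shGFP cells and 8 higher and 1 lower in shKDM1A cells, where 26.9% and 27.1% of all genes were called. Egr2 rose most (0.91 and 0.86), followed by Myc (0.54 and 0.68), with Zfp36 (0.44) and Atf3 (0.43) next in shGFP cells. With shKDM1A, 4 were higher and 5 lower without IL4 and 6 and 4 with IL4 (38.2% and 40.7% of all genes). Fos was higher (0.76 and 0.77) and Atf3 lower (-0.29 and -0.32). The IL4 responses of Ier5 (0.26) and Egr1 (0.16) differed between the lines, the 2 genes of this list called in that test, where 6.13% of all genes were. Neither was called without shKDM1A IL4 replicates 1 and 3 (0.21 and 0.16) or without shGFP control replicates 1 and 4 (0.25 and 0.18). Of 10 glucocorticoid and clock genes, 9 were tested, and with IL4 Bhlhe40 rose (0.55 in shGFP and 0.57 in shKDM1A cells) while Bhlhe41 (-0.90 and -0.69) and Per1 (-0.17 and -0.26) fell. With shKDM1A, 2 of these genes were higher and 2 lower, both without and with IL4, near the shares of 38.2% and 40.7% called over all genes. With IL4 this was 1 higher and 1 lower without shKDM1A IL4 replicates 1 and 3.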

How the data were processed

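RNA-seq of 16 libraries of RAW cells was used. The authors aligned reads to mm9 with HISAT2 and Bowtie2, used HOMER to count them on exons without strand, keeping 1 transcript row for each gene, and tested with DESeq2; versions are not given in the sources used here. The values per library, as deposited, are log2 values whose transformation is not named. They are not counts, so no count model was fitted, and no pseudocount was added. Where low values were drawn together, changes of weakly expressed genes are understated. The authors' own comparisons in both tables (log2 fold changes, p-values, adjusted p-values) were not used. Values were tested with limma 3.58.1 in R 4.3.3 (group means, all contrasts from 1 model, genes reaching 1 in 4 or more libraries), which was also tested on simulated data. Correlations, lengths and motifs were computed with Python 3.11.15.

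The KLF genes and all gene lists were chosen with earlier results of these data known. All 9 members, called genes among the largest changes of each related list (at most 4 per comparison; not the marker lists) and the 3 most correlated genes per member were named, and Adgre1, chosen after its values were seen. The values of 1 gene of the lists are not reported here. A match to a promoter used the RefSeq table of GRCm38.p6, with 1 window per gene symbol. Alternatives were no filter, a minimum of 5, only the groups compared, a replicate block, leaving out each library, median centring, quantile normalization and a trended robust prior, and, chosen after seeing the data, leaving out shKDM1A IL4 replicates 1 and 3 or shGFP control replicates 1 and 4.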

Additional observations from a re-analysis of the deposited data

Results flagged for a closer look

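Dixon's test was applied to the 4 libraries of each gene and group, 36 in all, and chance alone singles out about 1 in 20 groups. In shKDM1A control cells, 1 library of Klf2 was lower than the others, at 7.90 in replicate 3 against 8.04 to 8.07. In shGFP IL4 cells, 1 library of Klf4 was lower than the others, at 9.23 in replicate 1 against 9.35 to 9.37.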

How the results depend on the processing

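The calls of Klf2, Klf4, Klf6 and Klf10, those of Klf9 with shKDM1A and that of Klf11 with IL4 in shGFP cells held under every alternative tried. That of Klf9 with IL4 was lost without shGFP control replicate 1 and without replicates 1 and 4, and those of Klf7, Klf11 and Klf13 with shKDM1A and IL4 were lost under several. In that comparison 5 KLF genes were called with no filter and 5 without shKDM1A IL4 replicates 1 and 3, and 5 to 8 when each library was left out in turn. Over the other comparisons the counts without each library were 5 to 7 for IL4 in shGFP cells, 4 for IL4 in shKDM1A cells, 4 to 5 for shKDM1A without IL4 and 0 to 2 for the difference in IL4 response. Over all genes, the difference in IL4 response was called for 791 genes, and for 431 with no filter, a fit that has more genes. It was called for 348 without shKDM1A IL4 replicates 1 and 3 and for 306 without shGFP control replicates 1 and 4, fits with fewer libraries. When each library was left out in turn, the count was between 530 and 1104.

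The labels do not say that a replicate number marks shared material, and deviations of same-numbered libraries correlated at r between -0.34 and 0.27 in 24 pairs, with 3 over 0.1, so the number was not taken to pair them. In 12 of the 24 pairs a library correlated best with its own number, out of the 4 libraries of the other group. This is a hint from the data that leaves a weak pairing possible. With a replicate block, Klf11 in shKDM1A against shGFP with IL4 kept a log2 fold change of -0.11 and was no longer called, which left 7 of 9, and no other call of a KLF gene changed.

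Changes of sign were limited to genes that were not called. For IL4 in shKDM1A cells, Klf7 was at 0.0083 after median centring, at 0.0056 after quantile normalization and at 0.068 without replicates 1 and 3, where Klf9 was at 0.0098 and Klf13 at 0.052. Klf11 with shKDM1A without IL4 was at -0.0078 after quantile normalization. With each library left out, ranges spanned 0 for Klf3 with IL4 in shGFP cells (-0.030 to 0.026), for Klf7 (-0.035 to 0.024) and Klf13 (-0.074 to 0.016) with IL4 in shKDM1A cells, and for Klf3 (-0.073 to 0.00040), Klf7 (-0.029 to 0.0034) and Klf13 (-0.039 to 0.0021) with shKDM1A without IL4. The causes of these shifts were not tested. Median centring shifted libraries by -0.013 to 0.0099. Only 4 libraries per group and the unknown transformation limit the precision of changes of this size.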
